A study of Mus musculus with 6 samples.

Results

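The genes described here encode subunits of the Polycomb repressive complexes, measured in mouse embryonic stem (ES) cells with and without a hairpin against Chd8. They are the PRC2 genes Ezh1, Ezh2, Suz12, Eed, Jarid2, Mtf2 and Phf19 and the PRC1 genes Ring1, Rnf2 and Cbx7. Every probe whose gene symbol in the platform annotation, in its old or its updated form, was 1 of these 10 names was taken, which gave 18 of the 45281 probes on the array. Of these, 12 probes of 8 genes were bright enough to be tested, as were 16732 probes over the whole array.

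Polycomb complexes keep developmental genes silent. PRC2 places methyl groups on lysine 27 of histone H3 through its catalytic subunit EZH2 or EZH1, which works only together with SUZ12 and EED. PRC1 attaches ubiquitin to histone H2A through RING1 or RNF2, and in its canonical form a CBX protein such as CBX7 binds the methylated lysine. In ES cells both complexes sit on the promoters of lineage regulators, and cells without PRC2 can self-renew but differentiate poorly.

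The 6 Illumina bead arrays came from ES cells kept in medium with serum and LIF, the cytokine that holds them undifferentiated, over mitomycin-treated embryonic fibroblasts of the mouse, so RNA of these feeder cells can be present. All cells were electroporated with a pHYPER hairpin vector and kept under puromycin for 48 h from 24 h after transfection. The control group (3 arrays) carries the label control, with the vector's content not given in the sources used here, and the shChd8 group (3 arrays) received a hairpin against Chd8, an ATP-dependent chromatin remodeller. Strain, cell line and number of hairpins are not given either, and no label says whether separate cultures were used, so each p-value is set against the spread of these arrays alone, which may be technical.

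Values below are log2 intensities after background correction and quantile normalization, and a change is shChd8 minus control. Calls were made where limma's p, adjusted over all tested probes, was under 0.05. Between 16482 and 17440 probes were detected per array. The 6 arrays lay on 1 slide with the groups in separate positions, so that position and group cannot be told apart. Chd8 itself (ILMN_2703082) had 9.90, 9.97 and 10.02 on control and 8.71, 8.64 and 8.36 on shChd8 arrays. It fell by 1.39 (SE 0.15) to 38.1% of control (limma adjusted p = 0.00907), and the call was lost in 3 of 16 alternatives, namely without shChd8 replicate 1 (adjusted p = 0.0527), with an unmoderated test (adjusted p = 0.061) and with the feeder markers as a covariate (-1.58, adjusted p = 0.339). All 15 ES cell markers were above the detection filter, none was called by limma, where 5.17% of all genes were, and their median change was -0.11. An unadjusted p under 0.05 was found for 2 of them, where 25.7% of all probes had one. The lowest p values were those of Lin28a (-0.95), Tcl1 (-0.63), Fgf4 (-0.49) and Klf4 (0.27), with limma adjusted p from 0.0814 to 0.379. Their summed intensity before normalization was 84035 to 88171 in control and 80859 to 110602 in shChd8 arrays. Of 23 tested feeder fibroblast markers 2 were called, both higher, where 2.12% of all genes were called higher. Fbln2, an extracellular matrix gene, rose by 1.13 (limma adjusted p = 0.0376), and Tagln, a smooth muscle actin-binding gene, rose by 1.06 (limma adjusted p = 0.042). Without a call, Twist1 had 1.00, Acta2 1.16, Vim 1.18 and Col5a1 0.83 (limma adjusted p from 0.0514 to 0.121). Over the 23 markers 22 were above 0, where 48.2% of all genes were, with a median change of 0.83. The summed intensity of the feeder markers was 13951 to 22443 in control and 31392 to 46837 in shChd8 arrays. The part of feeder RNA in the results was not tested. The covariate fits given below use the median of these markers on each array, which was lower on all control than on all shChd8 arrays. Covariate and group thus largely coincide, and with the covariate limma called 0 of all tested probes. A change that shrinks in these fits cannot be assigned to feeder RNA or to the hairpin. In such mixed cultures, fewer cells of a type and less RNA per cell cannot be told apart.

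Among the Polycomb subunits Ring1 fell, and it was the 1 called gene of 8 tested, where 3.05% of all genes were called lower. The call was close to the threshold (limma adjusted p = 0.0483) and was lost in 10 of 16 alternative settings. Ezh2 was the next lowest by p without passing the test. The promoters of Ring1 and Ezh2 are shown as a description, and their relation to the changes was not tested. Both come from RefSeq (GRCm38.p6) and run 5′ to 3′ along the gene's strand, from 250 bases before to 50 bases after an annotated start. Ring1 lies on the minus strand at chr17:34024631-34024930, and capitals mark TGACGTC, the core of the cAMP response element. Ezh2 lies on the minus strand at chr6:47594981-47595280, and capitals mark TTTGGCGC, a sequence bound by E2F factors, and CCAAT, the sequence bound by NF-Y.
Ring1 promoter: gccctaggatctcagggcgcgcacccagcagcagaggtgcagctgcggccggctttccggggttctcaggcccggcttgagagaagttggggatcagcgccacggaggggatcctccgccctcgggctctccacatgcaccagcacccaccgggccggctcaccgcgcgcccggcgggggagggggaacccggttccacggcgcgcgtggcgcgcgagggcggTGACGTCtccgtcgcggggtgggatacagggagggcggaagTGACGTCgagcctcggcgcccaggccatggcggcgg
Ezh2 promoter: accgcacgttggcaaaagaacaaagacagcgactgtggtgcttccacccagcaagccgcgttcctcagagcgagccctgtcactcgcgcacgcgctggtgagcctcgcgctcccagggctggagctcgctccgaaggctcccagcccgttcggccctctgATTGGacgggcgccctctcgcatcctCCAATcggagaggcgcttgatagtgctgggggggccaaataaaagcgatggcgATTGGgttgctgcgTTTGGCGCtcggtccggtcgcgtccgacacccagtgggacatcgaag

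The Ring1 window held 37 CpG dinucleotides and the Ezh2 window 31, against a median of 7 over 32841 RefSeq promoters of the same length. Such counts were not particular to these genes among the members. Suz12 had 41, Phf19 38, Cbx7 33, Rnf2 30, Ezh1 23 and Eed 17. Jarid2 had 24 and 23 at its annotated starts, and Mtf2 had 30 and 2. TGACGTC, searched on both strands, occurred at 2 places in the Ring1 window, which start at -27 and 14 counted from the start site as 0. It was present in 3.21% of all promoters and, among the other members, in that of Phf19. TTTGGCGC was present in the Ezh2 window, from position 3, and in 0.515% of all promoters. CCAAT was present at 3 places in the Ezh2 window, of which 2 read on the opposite strand as ATTGG, and in 37.4% of all promoters. Windows of Suz12, Eed, Jarid2, Mtf2 and Cbx7 held it too. GGGCGG, the GC box, occurred at 3 places in the Ring1 window, at none in that of Ezh2 and in 35.7% of all promoters. Windows of Suz12, Jarid2, Mtf2, Phf19, Rnf2 and Cbx7 held it too. The motifs were chosen with these sequences in view, and a match is a description of letters, not of binding.

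Ring1, also known as Ring1A, encodes one of the paired E3 ubiquitin ligases of PRC1. Its main probe (ILMN_2932539) had log2 intensities of 7.57, 7.47 and 7.82 under control and 7.07, 6.73 and 6.76 under shChd8. Each shChd8 array lay below each control array, and the gap between the groups was about as wide as the spread within them. Ring1 fell by 0.76 on the log2 scale (SE 0.17, 95% confidence interval -1.15 to -0.38, limma adjusted p = 0.0483), to 58.9% of control. By exact permutation (two-sided) p was 0.1, which is the lowest value possible with 3 arrays in each group.

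A dimmer Ring1 probe (ILMN_2770715) was detected on 2 control arrays and 1 shChd8 array. It had 5.07, 6.34 and 5.69 in control and 4.80, 5.34 and 4.42 in shChd8 arrays, so the groups overlapped. Its change was -0.84 (SE 0.34, limma adjusted p = 0.164), and it shrank to -0.30 in the authors' normalized values and likewise when no background was corrected. The Ring1 call was close to the threshold. It was lost in 10 of 16 alternative settings, among them the removal of any single array other than control replicate 2 (adjusted p from 0.0781 to 0.148), while the change stayed between -0.87 and -0.48. When the median of the feeder markers entered the fit as covariate, the Ring1 change was as large at -0.80, with a wider standard error of 0.32 (adjusted p = 0.592).

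**Figure D1:**
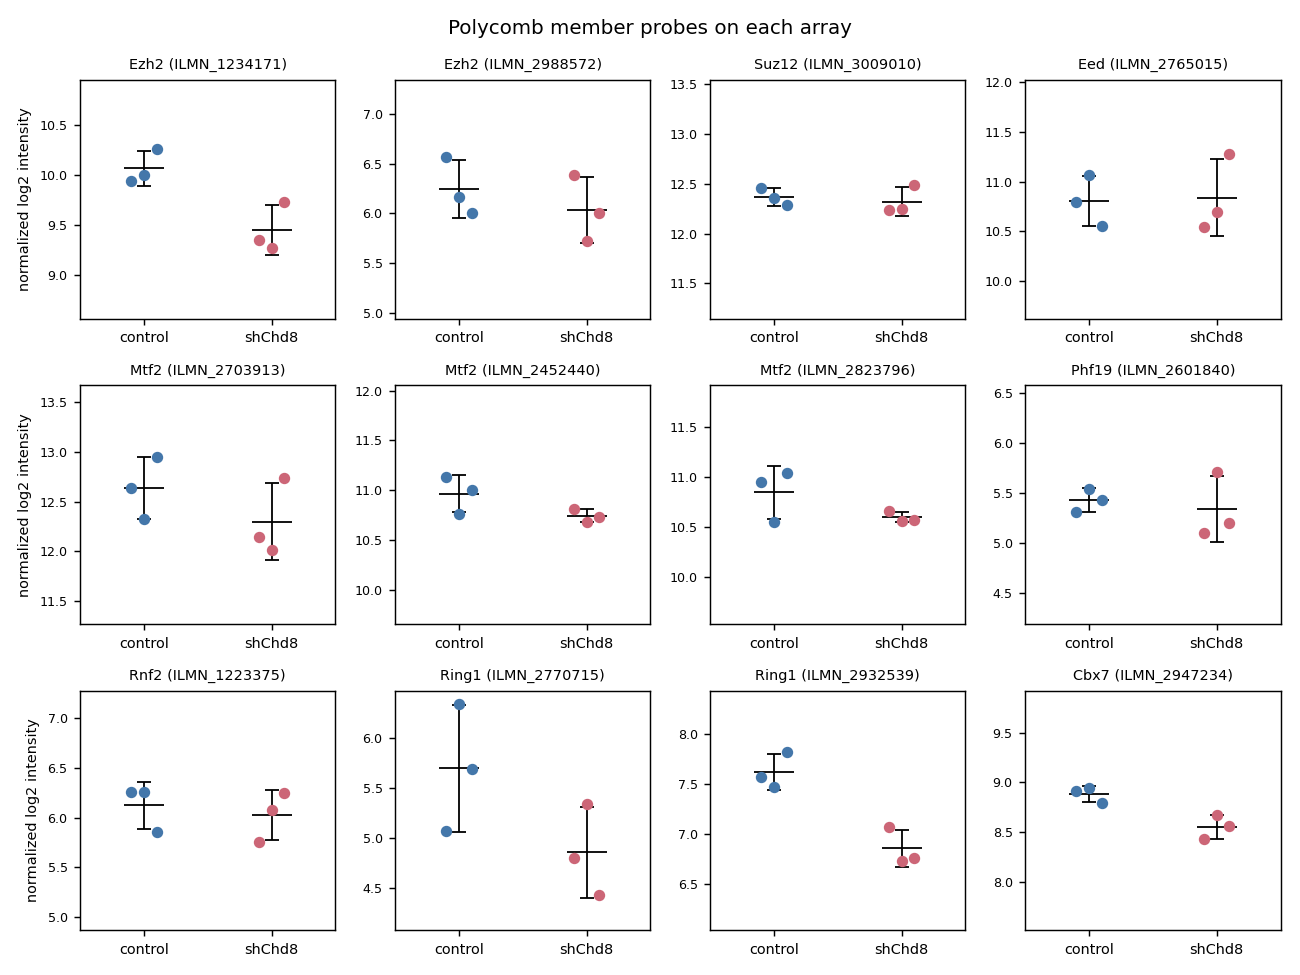
Normalized log2 intensity of the 12 tested Polycomb member probes on the 3 control arrays (blue) and the 3 shChd8 arrays (red), with the mean and SD of each group as a black bar. Each panel spans the same 2.4 log2 units around its own mean, and the groups are separate for Ring1 (ILMN_2932539), Ezh2 (ILMN_1234171) and Cbx7 and overlap for the other 9 probes. Over all tested probes the groups were separate on 30.2%.

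Rnf2, also known as Ring1B, encodes the second ligase of this pair and is the main one in ES cells. Its probe had 6.25, 6.26 and 5.85 in control and 5.75, 6.07 and 6.24 in shChd8 arrays, and the groups overlapped almost fully. The change was -0.10 (SE 0.19, 95% confidence interval -0.53 to 0.34, limma adjusted p = 0.782). This probe was dim, with 140 to 186 before normalization beside array medians of 106 to 123, and its change was -0.04 without background correction. The interval of Rnf2 reaches values as low as part of that of Ring1. The difference between the changes of Ring1 and Rnf2 was -0.67, and the groups overlapped. The exact permutation p was 0.3, and 0.3 adjusted over 4 such comparisons. With so few arrays the smallest p this test can give is 0.1, which is above the threshold used for calls. The test therefore cannot decide whether the ligases differed, and the same limit holds for the other comparisons of this kind below.

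Cbx7, which encodes the main chromodomain subunit of canonical PRC1 in undifferentiated ES cells, had 8.91, 8.94 and 8.79 in control and 8.44, 8.67 and 8.56 in shChd8 arrays. The 3 shChd8 values lay below the 3 control values. The change of -0.33 (SE 0.15, 95% confidence interval -0.66 to 0.0021) did not pass the test (limma adjusted p = 0.197). With the feeder covariate the Cbx7 change was -0.33 as well (adjusted p = 0.778), and with median scaling it was -0.09 (adjusted p = 0.775). The changes of Ring1 and Cbx7 differed by -0.44 (exact permutation p = 0.2, adjusted p = 0.267).

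In PRC2, Ezh2 encodes the methyltransferase that predominates in dividing cells. Its brightest probe (ILMN_1234171) had 9.938, 9.997 and 10.265 in control and 9.344, 9.269 and 9.730 in shChd8 arrays. The groups did not overlap, and shChd8 replicate 3 lay closest to the control arrays. The change was -0.62 (SE 0.18, 95% confidence interval -1.03 to -0.21), or 65.1% of the control level, without a call (limma adjusted p = 0.0825). In all, 3 of the 16 alternatives called it, namely no background correction (-0.56, adjusted p = 0.0268), the authors' normalized values (-0.56, adjusted p = 0.0269) and an intensity trend in the variance (adjusted p = 0.0267). With the feeder covariate it was -0.15 (SE 0.27, adjusted p = 0.917), while on the dimmer probe below the covariate gave -0.73 (SE 0.35, adjusted p = 0.622).

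A second detected Ezh2 probe (ILMN_2988572) had 6.57, 6.17 and 6.00 in control and 6.38, 5.73 and 6.00 in shChd8 arrays, with overlapping groups. Its change was -0.21 (SE 0.22, limma adjusted p = 0.59), and another Ezh2 probe (ILMN_2606429) was detected on no array. Which transcripts each probe binds was not examined. Ezh1, the other methyltransferase of PRC2, is known for its role in cells that divide less. Its probe was detected on 1 of 6 arrays, shChd8 replicate 2, and was not tested.

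Suz12 and Eed, the partners without which EZH2 is inactive, were not called, and their groups overlapped. The detected Suz12 probe had 12.46, 12.36 and 12.29 in control and 12.23, 12.25 and 12.49 in shChd8 arrays. Its change was -0.05 (SE 0.15, 95% confidence interval -0.39 to 0.29, limma adjusted p = 0.88). The detected Eed probe had 10.80, 11.06 and 10.56 in control and 10.54, 10.70 and 11.27 in shChd8 arrays, a change of 0.03 (SE 0.23, 95% confidence interval -0.48 to 0.55, limma adjusted p = 0.947). For Eed the highest and the lowest array were both shChd8 arrays. The change of Ezh2 differed from that of Suz12 by -0.57 and from that of Eed by -0.65. In each case the groups did not overlap (exact permutation p = 0.1, the smallest possible, and 0.2 adjusted over the 4 comparisons).

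Mtf2, or Pcl2, is the Polycomb-like subunit that helps PRC2 bind CpG-rich DNA in ES cells. Its 3 probes, which share a target and are not replicates, had changes of -0.34, -0.22 and -0.25 (limma adjusted p = 0.403, 0.397 and 0.397), and the groups overlapped on each. On the brightest (ILMN_2703913) the values were 12.64, 12.33 and 12.95 in control and 12.14, 12.01 and 12.74 in shChd8 arrays. Its change turned to 0.32 with the feeder covariate (SE 0.35, adjusted p = 0.85), while the other probes had -0.31 (ILMN_2452440) and -0.20 (ILMN_2823796), so the probes disagreed there. Phf19, another Polycomb-like subunit, had 5.31, 5.54 and 5.43 in control and 5.10, 5.71 and 5.20 in shChd8 arrays. These lie near the detection limit, and the change was -0.09 (SE 0.19, limma adjusted p = 0.802). Jarid2, which guides PRC2 to chromatin, had 2 probes, detected on 2 arrays and on none, and was not tested. This says nothing of its transcript beyond these probes.

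**Figure D2:**
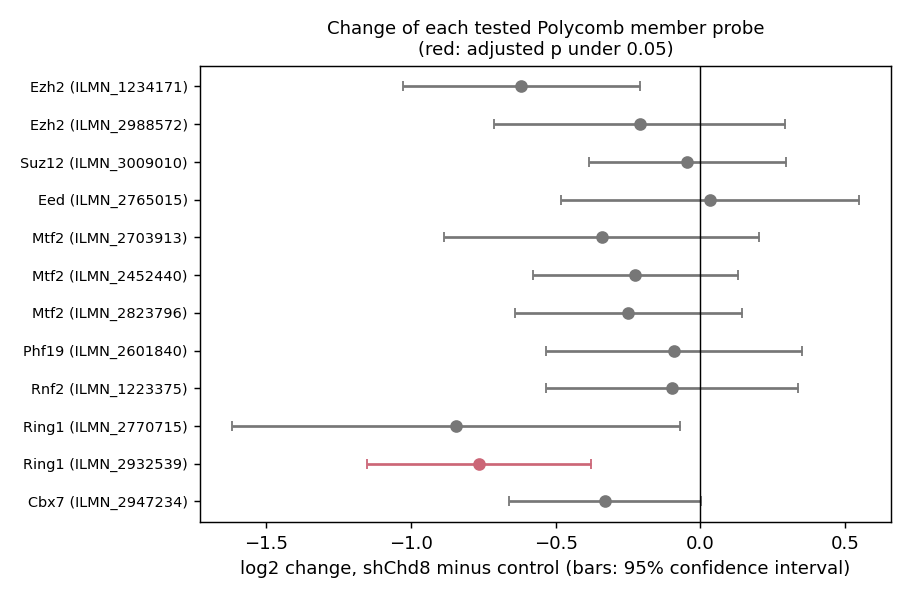
Log2 change (shChd8 minus control, x axis) of each tested Polycomb member probe (y axis), with its 95% confidence interval from limma. The main Ring1 probe at -0.76 is the 1 called probe, and the intervals of 9 of the other probes include 0.

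Over the 12 tested probes 1 was called, and it was lower, where 2.12% of all tested probes were called lower and 3.68% in either direction. By gene it was 1 of 8, where 3.05% of 9711 genes were called lower by any probe. Of all probes 1.55% were called higher, and 25.7% had an unadjusted p under 0.05. A single call among so few genes is no result about the group. The groups did not overlap on 3 of the 12 probes, each lower, where they were separate on 30.2% of all probes and lower on 16.4%. By the brightest probe this was 3 of 8 genes, where 18.2% of genes were separate and lower. The median change was -0.21, against -0.02 over all tested genes, and 7 of 8 genes were below 0 where 51.8% of all genes were. That count depended on the scaling. With median scaling 4 of 8 were below 0 and the median was -0.02. That scaling moved the median of all probes from -0.014 to 0.18. The members' median thus lay below that of all probes in both fits. The share of all genes below 0 was not computed with median scaling. With the feeder covariate 5 of 8 were below 0, with a median of -0.0089 against 0.0079 over all probes. By array, the median deviation of the members from their means was 0.18, 0.21 and 0.06 for the controls, and for shChd8 it was -0.28, -0.11 and 0.06, so that shChd8 replicate 3 stood at the level of control replicate 3. Without shChd8 replicate 1 the median change was -0.14, and 5 of 8 genes were below 0.

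The other PRC2 genes held no call. Of 8 listed genes 6 were tested and limma called none, where 5.17% of all genes were called. An unadjusted p under 0.05 was found for 2 (Aebp2 and Lcor), where 25.7% of all probes had one. That of Lcor rests on undetected control values and is no support for a change. Aebp2, a cofactor of PRC2, had 9.89, 9.95 and 9.90 in control and 10.33, 10.36 and 10.51 in shChd8 arrays on its brightest probe. The shChd8 arrays were higher without overlap, by 0.48 (SE 0.14, limma adjusted p = 0.0809), and by 0.61 with the feeder covariate. The histone chaperone Rbbp4 had -0.25 (limma adjusted p = 0.291) and Epop, a PRC2 partner abundant in ES cells, 0.26 (limma adjusted p = 0.337). The corepressor Lcor passed detection on 3 shChd8 arrays and none of the controls, so it was tested only through its brighter group. Its full change of 0.53 (limma adjusted p = 0.102) rests on undetected control values. As a bound, the shChd8 level was at least 1.06-fold higher. The median change of the 6 was 0.17, or 0.09 with Lcor at this bound.

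Of 28 other PRC1 subunits and partners 24 were tested, and 1 was called by any probe, lower, where 3.05% of all genes were called lower and 5.17% in either direction. This was Csnk2a1, the catalytic subunit of casein kinase 2, a partner of some PRC1 forms with many other roles. On the called probe (ILMN_1223808) it had 6.28, 6.25 and 6.59 in control and 5.32, 5.62 and 5.75 in shChd8 arrays and fell by 0.81 (SE 0.18, limma adjusted p = 0.0459). A second probe had -0.66 (limma adjusted p = 0.0667), while the brightest had -0.11 with overlapping groups (limma adjusted p = 0.856), so the probes disagreed. The call was lost in 13 of 16 alternatives.

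The PRC1 subunits without a call and with the lowest p lay in both directions. Pcgf5, the RING-finger partner in a variant PRC1, had 10.16, 9.83 and 10.36 in control and 9.32, 9.31 and 9.66 in shChd8 arrays, a change of -0.69 (SE 0.19, limma adjusted p = 0.0722) that was -0.28 with the feeder covariate. Cbx2, a chromodomain subunit, had 7.20, 6.67 and 7.47 against 6.54, 5.78 and 6.53, a change of -0.83 (SE 0.27, limma adjusted p = 0.107). For both genes the shChd8 arrays were the lower ones.

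Bmi1, the RING1 partner of canonical PRC1 in many adult tissues, had 5.60, 5.64 and 6.17 in control and 6.58, 6.38 and 6.41 in shChd8 arrays, a change of 0.65 (SE 0.19, limma adjusted p = 0.0816). Kdm2b, which brings a variant PRC1 to unmethylated CpG islands, had 7.82, 8.73 and 8.06 against 8.80, 9.12 and 9.14 on its brightest probe, a change of 0.82 (SE 0.24, limma adjusted p = 0.0851). Here the shChd8 arrays were the higher ones, and the changes were 0.88 for Bmi1 and 1.07 for Kdm2b with the feeder covariate. Only 3 of the 4 tested Kdm2b probes were higher, so its probes did not all go the same way. Bcor, a subunit of the same variant complex that was chosen after its values were seen, had 0.67 (SE 0.16, limma adjusted p = 0.0583) on 1 probe and 0.57 (limma adjusted p = 0.172) on its brightest. Over the 24 genes the median change was 0.03, with 13 above and 11 below 0. The groups were separate for 5 genes that were higher and 4 that were lower, where 14.6% and 18.2% of all genes were.

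**Figure D3:**
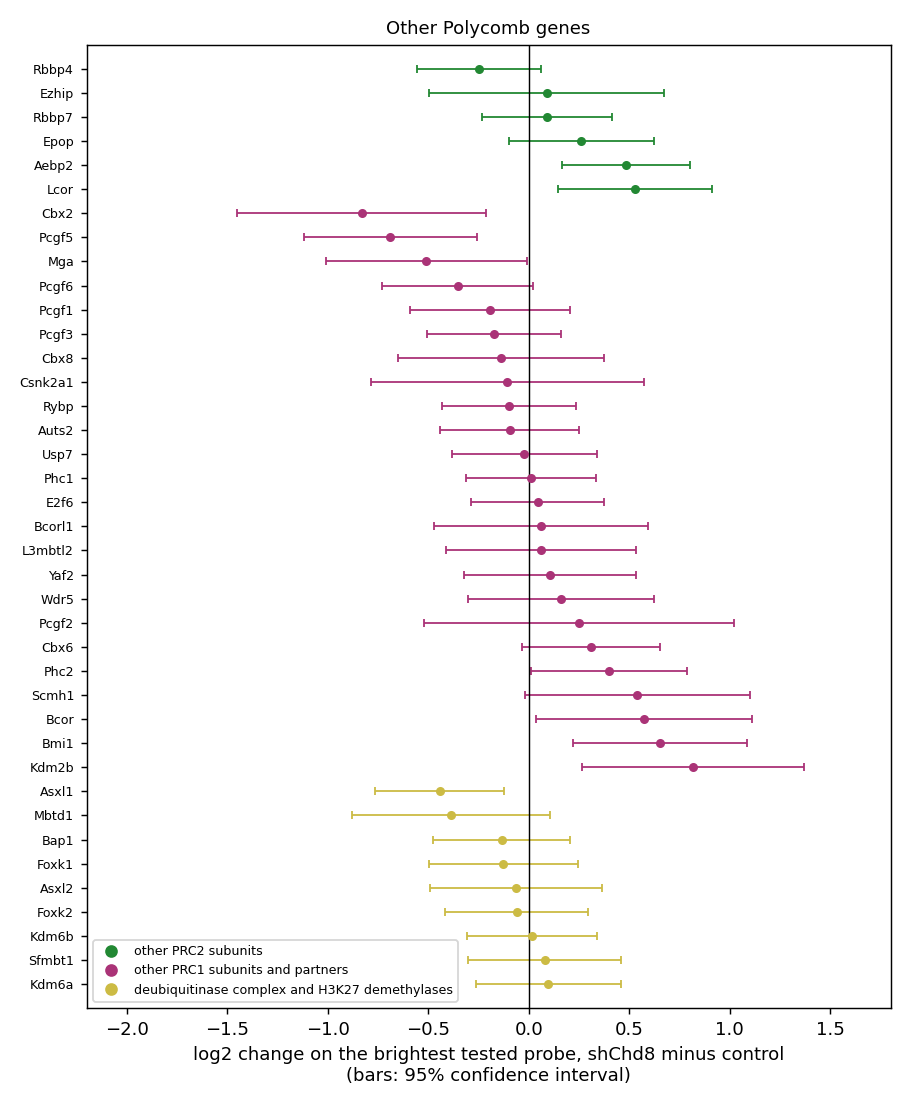
Log2 change (shChd8 minus control, x axis) on the brightest tested probe of 39 other Polycomb genes, with 95% confidence intervals. Within PRC1 the points run from Cbx2 at -0.83 to Kdm2b at 0.82, and on these probes limma called none of the 39. By unadjusted p under 0.05, 6 were higher and 4 lower, where 25.7% of all probes had such a p. The 6 include Lcor, shown at its full change of 0.53, which rests on undetected control values.

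Asxl1 stood lowest among 9 tested genes of a further list. This list held the deubiquitinase complex that opposes PRC1, the histone H3 lysine 27 demethylases, and Sfmbt1 and Mbtd1, which belong to neither. Asxl1 encodes the partner that activates the deubiquitinase BAP1. Its 3 probes were all lower without overlap, by -0.81 (SE 0.19, limma adjusted p = 0.054), -0.62 (limma adjusted p = 0.0996) and, on the brightest, -0.44 (SE 0.14, limma adjusted p = 0.1). The brightest had 9.44, 9.58 and 9.61 in control and 9.04, 9.16 and 9.10 in shChd8 arrays. These probes share a target, and none passed the test. Bap1 had -0.13 (limma adjusted p = 0.612), Mbtd1 -0.39 (limma adjusted p = 0.299) and the forkhead gene Foxk1 -0.13 (limma adjusted p = 0.666). By limma 0 of these 9 genes were called, where 5.17% of all genes were, and 1 had an unadjusted p under 0.05, as had 25.7% of all probes.

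Targets of Polycomb repression were examined through 80 developmental regulators and cell cycle inhibitors known as PRC2 targets in ES cells. Of these, 31 were bright enough to be tested and 49 were not. A gene that passes the filter through its brighter group is likely to differ, so the 31 do not stand for all 80. En2, a homeobox gene of the midbrain and hindbrain, was the 1 called gene, where 2.12% of all genes were called higher. It had 7.35, 7.63 and 7.15 in control and 9.02, 8.53 and 8.77 in shChd8 arrays, with a gap between the groups wider than the spread within either. En2 rose by 1.40 (SE 0.19, limma adjusted p = 0.0161), or 2.63-fold. The En2 call was kept when control replicate 2 or shChd8 replicate 3 was left out and lost with each of the other arrays left out (adjusted p from 0.0512 to 0.0776).

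The other target genes with the lowest p were higher without a call. Cdkn2b, which encodes the cell cycle inhibitor p15, had 9.12, 9.25 and 8.21 in control and 10.52, 10.26 and 9.61 in shChd8 arrays, a change of 1.27 (SE 0.32, limma adjusted p = 0.0617). Its neighbour Cdkn2a, which encodes p16 and p19Arf, had 6.36, 5.46 and 5.60 against 7.14, 6.69 and 6.49, a change of 0.97 (SE 0.27, limma adjusted p = 0.0739). On these probes control and shChd8 arrays were separate for both classic Polycomb targets, while on a dimmer Cdkn2a probe they overlapped (0.61, limma adjusted p = 0.187). Irx3, an Iroquois homeobox gene, had 0.82 (limma adjusted p = 0.0726), and Tbx15, a T-box gene of mesenchyme that was detected on 1 control array, 0.92 (limma adjusted p = 0.0667).

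Over the 31 target genes the median change was 0.68 and 27 were above 0, where 48.2% of all genes were. On the same arrays the feeder markers were higher under shChd8 too. Deviating from their means, the target genes had medians of -0.26, -0.16 and -0.63 for the controls and 0.47, 0.40 and 0.04 for shChd8, beside -0.16, -0.37 and -0.81 and 0.90, 0.54 and 0.06 for the feeder markers. In both lists control replicate 3 was the lowest array and shChd8 replicate 3 the lowest of its group. With the feeder covariate the target median was 0.13, with 20 of 31 above 0. There Cdkn2b had 0.07, Cdkn2a 0.19 and Tbx15 0.36, while En2 had 1.09 (SE 0.33, adjusted p = 0.506) and Irx3 0.87 (adjusted p = 0.629). The target median was 0.29 without background correction.

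**Figure D4:**
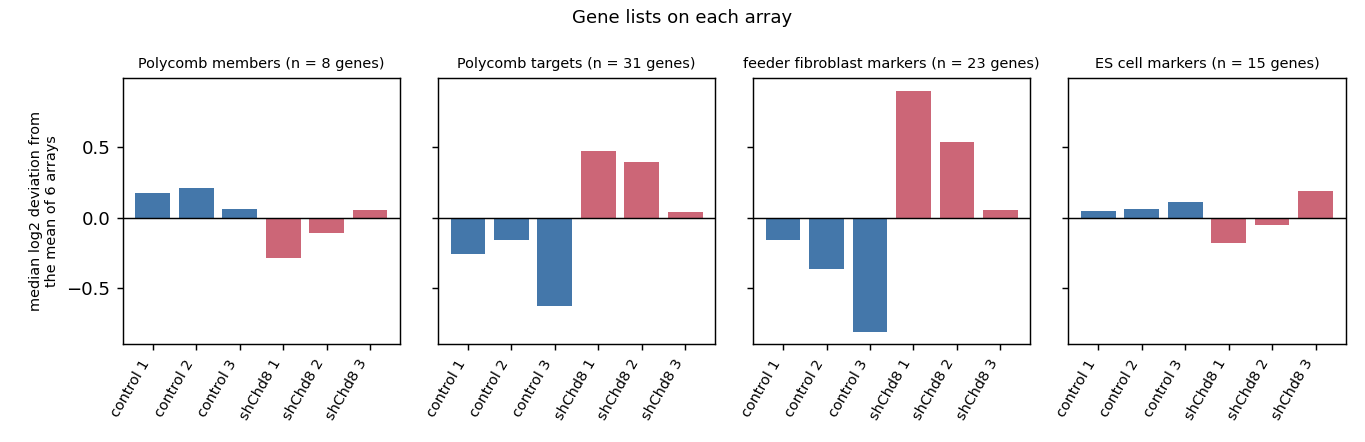
Median log2 deviation of 4 gene lists from their mean over 6 arrays (y axis), for each control array (blue) and shChd8 array (red). Target genes and feeder markers are lower on all control arrays than on all shChd8 arrays, while the Polycomb members range from 0.21 to -0.28, with replicate 3 of each group at 0.06.

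The tested genes with the pattern most like that of Ring1 over the 6 arrays were Ska2, a spindle and kinetochore gene, Zfp607a, Pdxp, Kat5, which encodes the acetyltransferase TIP60, and Commd10. Pearson's r with the main Ring1 probe lay between 0.988 and 0.993. Their changes ranged from -0.66 for Pdxp to -0.51 for Commd10, and none was called (lowest limma adjusted p = 0.051, for Kat5). They were picked as the most alike of 9711 genes over 6 arrays that also differ by group, so r is a description of likeness only.

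**Figure D5:**
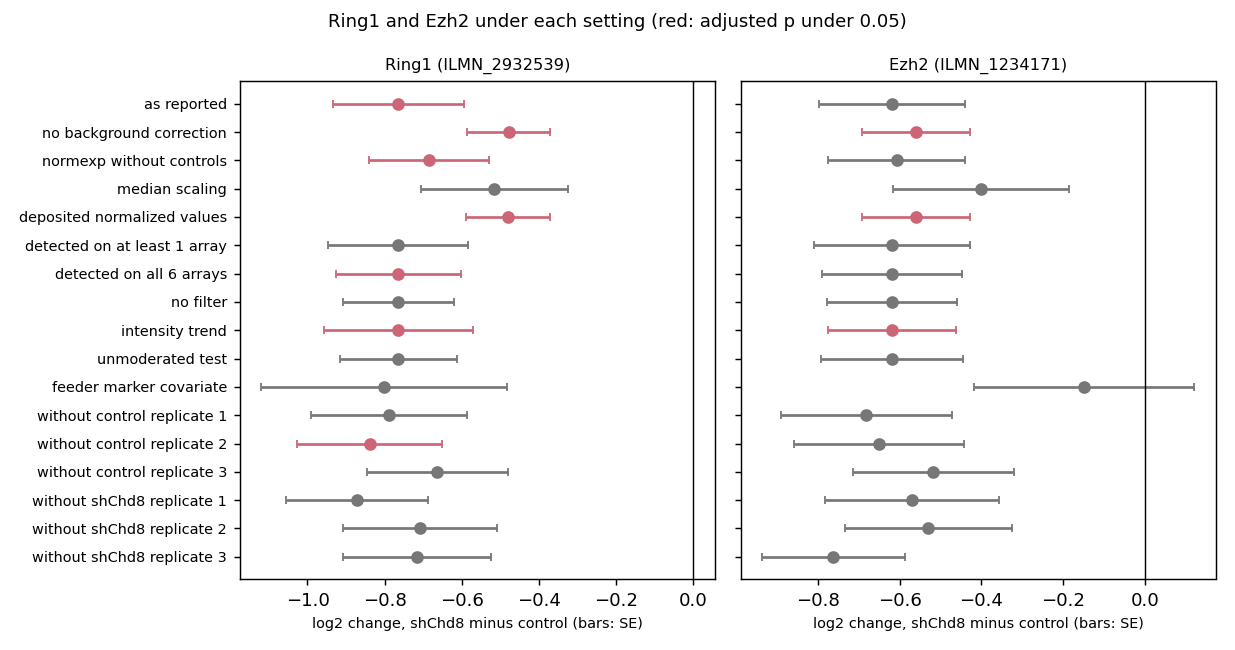
Log2 change (shChd8 minus control, x axis, bars: SE) of the main Ring1 probe and the brightest Ezh2 probe as reported and under 16 alternative settings (y axis), with calls in red. Ring1 lies between -0.87 and -0.48 throughout, and Ezh2 lies between -0.76 and -0.40 except with the feeder covariate, where it is -0.15.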

How the data were processed

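The authors deposited non-normalized probe intensity (linear scale), beside its detection p-value, per the file headers, and a table of normalized intensity whose columns share one distribution, as quantile normalization gives. The submitters' processing notes name GenomeStudio. Its version and the genome build of the probes are not given in the sources used here. From the non-normalized values, neqc in limma 3.58.1 (R 4.3.3) corrected background from the detection p-values with an offset of 16, quantile normalized and took log2. Probes with a detection p under 0.01 on at least 3 of 6 arrays were fitted with lmFit and eBayes, two-sided, without covariate, with Benjamini-Hochberg adjustment over 16732 probes. Other genes are shown on their brightest tested probe and counted by any probe. Current symbols were looked up through RefSeq gene identifiers and found for 34807 of 34885 named probes, whether or not the symbol differed.

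Groups follow the transfection label, and replicate numbers only name arrays. Named genes are the members, Chd8, each called gene of a list, the 4 uncalled with the lowest p and the 5 most like the lead probe. Bcor was named outside this rule, and Sfmbt1 only to describe its list. Members and lists were chosen with earlier results of these data known. The fit was tested on simulated data. Alternatives covered background correction, normalization, filter, test, a feeder marker covariate and leaving out each array. The number of arrays limits precision.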

Additional observations from a re-analysis of the deposited data

How the results depend on the processing

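Counts of calls depended strongly on the processing. Without background correction limma called 2 member probes, 5 other Polycomb genes, 6 target genes and 1728 probes in all, against 1, 1, 1 and 615 as reported. The authors' normalized values gave 2, 5, 6 and 1731, and an intensity trend 2, 6, 7 and 1715. Normexp without controls gave 3 other Polycomb genes, 2 target genes and 1042 probes, and detection on all 6 arrays 3, 2 and 1049. Median scaling gave 0, 5, 11 and 1802, with 1590 probes higher and 212 lower against 260 and 355. Detection on at least 1 array gave 0 member probes, 0 other Polycomb genes and 272 probes, no filter 0, 0 and 311, the unmoderated test 0, 0 and 0 target genes and 17 probes, and the feeder covariate 0 of each, where the unadjusted p was under 0.05 for 1397 probes (4292 as reported). Leaving out 1 array gave 0 to 1 member probes, 0 to 3 other Polycomb genes, 0 to 6 target genes and 13 to 818 probes.

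Small changes turned sign with median scaling for Suz12 (0.10), Phf19 (0.045), Rnf2 (0.12) and the second Ezh2 probe (0.012), against 0.18 for all probes. They did so with the feeder covariate for Suz12 (0.044) and the brightest Mtf2 probe (0.32), while the other Mtf2 probes had -0.31 and -0.20 and the second Ezh2 probe -0.73. Without 1 array, Eed turned to -0.09 and -0.19 (control replicate 3 and shChd8 replicate 3), and without shChd8 replicate 1 Phf19 turned to 0.028 and Rnf2 to 0.037. Over these removals Phf19 ranged from -0.28 to 0.028 and Rnf2 from -0.23 to 0.037. Ring1, Cbx7 and the brightest Ezh2 probe stayed below 0 in all 16 alternatives, Cbx7 at -0.09 with median scaling. The cause of these shifts was not tested. No paired analysis was possible because the labels carry no replicate numbers shared between groups.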
